A study of Rattus norvegicus with 23 samples.

Results

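The genes described here are 39 that carry out or start DNA replication, from the licensing of origins to the joining of new strands. They were chosen by name in the authors' deposited gene tables of differentiating CG4 cells and followed by identifier through the count files of all 23 libraries. Each of the 39 names matched 1 identifier among the 32552 genes that the largest files list. Of them, 38 are among the 15219 genes listed in every file, and Cdc45 is listed in the files of differentiating CG4 cells alone.

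CG4 is an immortalised line made from oligodendroglia of rat brain, and RNA was extracted as total RNA and sequenced in bulk. Differentiating CG4 cells carried pCAG-myc-Zfp488-IRES-EGFP (the Zfp488 group, 4 libraries), pCAG-T7-Nkx2.2-IRES-EGFP (the Nkx2.2 group, 4 libraries) or pCAG-IRES-EGFP, which gives GFP only (the control group, 4 libraries). Zfp488 and Nkx2.2 are transcription factors of the oligodendrocyte lineage, and the pCAG promoter drives the introduced gene strongly in most cell types. These 12 cultures had spent 3 days in SATO medium with high T3/T4 (thyroid hormones) and CNTF (a cytokine that acts on glia). Proliferating CG4 cells (3 libraries) were wild type, carried no vector and were kept in basal medium with the mitogens bFGF and PDGF-AA. Wild-type primary oligodendroglia, shaken off mixed glial cultures of rat brain, were sequenced after 3 days of the same differentiation (4 libraries) and under the same proliferative conditions (4 libraries). Proliferating CG4 cells were also read with shorter paired reads than all other libraries, so in CG4 the effects of differentiation, vector and sequencing run cannot be told apart.

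Before a cell divides, origins are licensed when ORC, Cdc6 and Cdt1 load the ring of Mcm2 to Mcm7 onto DNA. Cyclin E and kinases then open S phase, Cdc45 and GINS turn the ring into an active helicase, and polymerases copy the DNA behind it. E2F factors, released from pocket proteins such as Rb, switch on many of these genes before S phase. Oligodendrocyte progenitors divide under PDGF and leave the cell cycle when they differentiate. In bulk RNA, fewer cycling cells and less RNA per cycling cell cannot be told apart.

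The start regions of several of these genes hold short words that E2F factors are known to bind, and the clearest are shown because their genes move together below. Promoters are those of RefSeq in the rat build GRCr8, 250 bases before to 50 after the start, and 31 of the 39 genes matched one. The counts rest on another build, rn6, so no position of the count files is given. Capitals mark exact matches to TTTCCCGC, TTTGGCGC, TTTCGCGC or TTTGCCGC on either strand, and matches that overlap run together. All stretches lie before the start, and those of Mcm2, Mcm5, Gins1 and Tyms reach the base next to it.
Mcm2, chr4:122918095-122918144, minus strand: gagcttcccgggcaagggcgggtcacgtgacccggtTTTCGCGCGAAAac
Mcm5, chr19:13488765-13488812, plus strand: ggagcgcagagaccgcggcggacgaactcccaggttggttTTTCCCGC
Mcm6, chr13:42404440-42404527, minus strand: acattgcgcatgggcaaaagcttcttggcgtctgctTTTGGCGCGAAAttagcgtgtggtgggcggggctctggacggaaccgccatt
Gins1, chr3:160184859-160184919, plus strand: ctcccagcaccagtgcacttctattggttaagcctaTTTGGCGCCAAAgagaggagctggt
Pola1, chrX:62342480-62342567, minus strand: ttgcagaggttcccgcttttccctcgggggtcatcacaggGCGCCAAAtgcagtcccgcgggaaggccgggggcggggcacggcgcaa
Tyms, chr9:120776084-120776160, minus strand: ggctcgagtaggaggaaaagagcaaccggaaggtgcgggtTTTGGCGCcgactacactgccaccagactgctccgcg
Mcm2, Mcm6 and Gins1 show 2 overlapping matches, on opposite strands. Of the 31 promoters, 14 held at least 1 of the E2F words (45.2%), as did 16 of 41 promoters of other replication factors, 1 of 17 of mitosis genes (5.88%) and 618 of all 27457 promoters (2.25%). The word CCAAT, on either strand, stood in 64.5% of the promoters of these genes, in 82.4% for mitosis genes and in 37.7% of all promoters. TTTGAA or TTCGAA, words known from promoters of mitotic genes, stood in 16.1% for these genes, in 64.7% for mitosis genes and in 19.5% of all promoters. A match is a description of these letters and does not show binding. Promoters of Rrm2, Ccne2, E2f1, Cdc6, Gins4, Mcm4, Rpa3 and Orc1 were not used here.

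Total counts ran from 20063345 to 49206479 per library. Levels are given as CPM, the counts of a library brought to a common total, with all 23 libraries scaled together by TMM (a correction for unequal composition). They compare 1 gene between libraries, not different genes, since they are not divided by length. The introduced genes followed the labels: Zfp488 stood at 130 to 200 CPM in the Zfp488 group and 33.7 to 59.0 CPM in control, and Nkx2-2 at 1282 to 1990 CPM in the Nkx2.2 group and 211 to 299 CPM in control. Sox10 and Olig2, which define the lineage, stood at 522 CPM or more and 272 CPM or more in every library, whereas the progenitor marker Cspg4 stayed at 8.44 CPM or less in all CG4 libraries, against 93.8 CPM or more in primary cells. No library pair within a group agreed within counting noise. Among the differentiating primary libraries, replicates 1 and 2 resembled each other, as did 3 and 4.

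**Figure D1:**
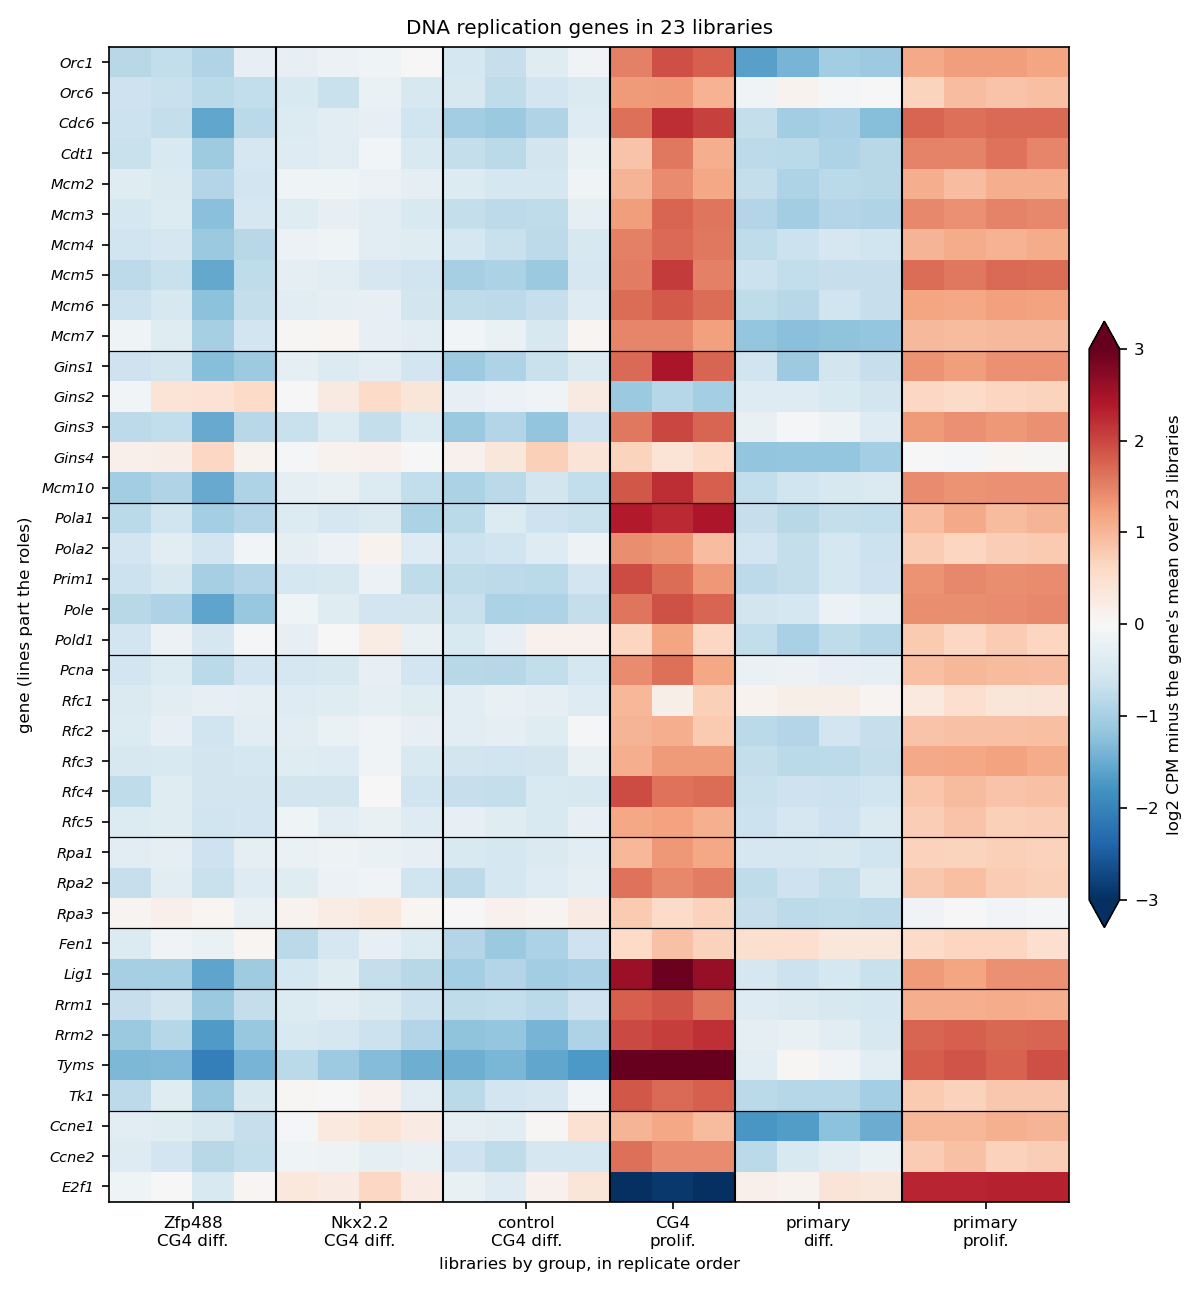
Each row is 1 of 38 genes (all but Cdc45) and each column 1 library; colour gives log2 CPM minus the gene's mean over the 23 libraries, with the scale ending at 3 in each direction, which E2f1 and Tyms pass in some libraries. Most rows are red in the proliferating cells of both sources and blue in the differentiating ones, and the E2f1 row is lowest in proliferating CG4 cells and highest in proliferating primary cells.

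Replication genes fell together when primary oligodendroglia differentiated. All 38 genes that could be tested were lower in differentiating than in proliferating primary cells (edgeR's quasi-likelihood test, Benjamini-Hochberg adjusted p under 0.05). The background was high, since 84.8% of all 12310 genes tested were called and 43.3% were lower. The median log2 fold change was -1.68 for these genes, a 3.21-fold lower level, against -0.02 for all genes. Every one of the 38 stood lower in each differentiating than in each proliferating library, as did 43.2% of all genes. Their CPM summed to 1299, 1288, 1324 and 1284 in the differentiating and to 3983, 3989, 4058 and 4024 in the proliferating primary libraries.

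The licensing genes changed most as a role, with a median log2 fold change of -2.21 over 10 genes. Cdc6, which loads the helicase ring, stood at 8.93, 7.12, 7.39 and 5.99 CPM in differentiating and at 48.9, 46.0, 47.5 and 47.3 CPM in proliferating primary cells. That is a log2 fold change of -2.63 ± 0.09 (SE; adjusted p = 2.53e-10), the largest fall of all members, and the groups lie far apart. Mcm5, a ring subunit, had 55.9, 52.3, 54.1 and 54.1 CPM in differentiating and 278, 259, 282 and 279 CPM in proliferating primary cells, 4.93-fold lower (-2.30 ± 0.04, adjusted p = 3.23e-12). Mcm3 and Mcm7 belong to the same ring. Mcm3 had 31.1, 28.1, 31.3 and 30.9 CPM in differentiating and 157, 148, 162 and 155 CPM in proliferating primary cells (-2.31 ± 0.05). Mcm7 had 67.4, 63.1, 65.8 and 68.0 CPM in differentiating and 297, 294, 299 and 295 CPM in proliferating primary cells (-2.12 ± 0.04). Neither overlaps between the groups. Cdt1, the other loading factor, had 15.6, 15.5, 14.3 and 15.1 CPM in differentiating and 75.1, 75.2, 83.8 and 74.4 CPM in proliferating primary cells (-2.31 ± 0.05), also far apart. Orc1, the largest subunit of the origin recognition complex, fell by 2.45 ± 0.12. Orc6, the smallest subunit of that complex, fell by 0.80 ± 0.07 and was the least changed of the 10.

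Genes that open S phase fell as well. Ccne1, which encodes cyclin E1, stood at 8.51, 8.93, 12.2 and 10.3 CPM in differentiating and at 57.8, 57.2, 60.5 and 58.1 CPM in proliferating primary cells (-2.52 ± 0.09, adjusted p = 5.67e-10). E2f1, an activator of these genes, stood at 14.5, 13.9, 16.9 and 16.4 CPM in differentiating and at 63.7, 63.0, 64.1 and 64.0 CPM in proliferating primary cells (-2.01 ± 0.07, adjusted p = 1.66e-10). Both are far apart between the groups, whereas cyclin E2 (Ccne2) fell by 1.16 ± 0.11.

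The GINS subunits, which join the helicase, fell unevenly, from -2.02 ± 0.10 for Gins1 to -1.03 ± 0.04 for Gins2, with Gins3 and Gins4 between. Mcm10, which helps to start the helicase, had 16.4, 18, 19.4 and 20.1 CPM in differentiating and 72.4, 69.5, 70.5 and 70.1 CPM in proliferating primary cells, with no overlap (-1.90 ± 0.06). Primase and polymerase genes had a median of -1.71, led by the primase subunit gene Prim1. It had 24.3, 25.7, 29.0 and 27.4 CPM in differentiating and 107, 114, 111 and 112 CPM in proliferating primary cells (-2.02 ± 0.06, adjusted p = 7.04e-11), again with no overlap. The polymerase genes Pola1, Pole, Pold1 and Pola2 followed, with Pola2 at -1.31 ± 0.06 the least changed. Nucleotide supply had a median of -1.79. Rrm1, the large subunit of ribonucleotide reductase, had 95.9, 92.5, 90.4 and 87.1 CPM in differentiating and 267, 269, 272 and 267 CPM in proliferating primary cells, which lie far apart (-1.51 ± 0.04). Its partner Rrm2 fell by 2.03 ± 0.05, Tyms, which makes thymidylate, by 1.98 ± 0.08, and the thymidine kinase Tk1 by 1.61 ± 0.05.

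Falls were smaller among several clamp, loader and single-strand binding genes. The clamp Pcna stood at 137, 139, 133 and 131 CPM in differentiating and at 295, 312, 303 and 301 CPM in proliferating primary cells (-1.13 ± 0.04, adjusted p = 1.72e-10). Among the clamp loader subunits, Rfc3 had 16.9, 15.7, 16.1 and 16.8 CPM in differentiating and 61.2, 61.3, 64.2 and 59.5 CPM in proliferating primary cells (-1.87 ± 0.05), whereas the large subunit Rfc1 fell by 0.22 ± 0.05 (adjusted p = 0.0015). Rpa1, which coats single strands, had 59.6, 59.7, 60.3 and 56.1 CPM in differentiating and 136, 135, 140 and 136 CPM in proliferating primary cells, with a wide gap between the groups (-1.17 ± 0.04). Its partners Rpa2 and Rpa3 fell by 1.39 ± 0.08 and 0.66 ± 0.05.

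Fen1 and Lig1, which trim and join Okazaki fragments, went apart. The ligase gene Lig1 had 24.7, 22.6, 24.3 and 22.1 CPM in differentiating and 85.9, 80.5, 91.2 and 91.5 CPM in proliferating primary cells (-1.86 ± 0.06, adjusted p = 1.01e-10). The flap nuclease gene Fen1 had 77.0, 78.4, 70.0 and 70.0 CPM in differentiating and 82.3, 86.8, 86.2 and 79.4 CPM in proliferating primary cells (-0.14 ± 0.05, adjusted p = 0.0235). The groups of Fen1 lie only just apart, and its call was lost with RLE size factors (-0.11, adjusted p = 0.0678), with DESeq2 (-0.12, adjusted p = 0.086), with all 23 libraries in 1 fit (-0.17, adjusted p = 0.179), with the close pairs summed (-0.11, adjusted p = 0.144) and with 1 library left out, at adjusted p = 0.174 and 0.163 without differentiating replicate 3 or 4 and 0.0654 and 0.0628 without proliferating replicate 2 or 3.

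Lists of related genes moved in the same direction. Of 43 other replication factors, 36 were lower and 6 higher, with a median of -1.42. Uhrf1 and Dnmt1, which maintain DNA methylation behind the fork, fell by 2.39 ± 0.04 and 1.91 ± 0.06. Rrm2b, the ribonucleotide reductase subunit that is known to serve cells outside S phase, rose by 1.30 ± 0.09 (adjusted p = 8.24e-08). All 19 mitosis genes fell, with a median of -1.90, among them the checkpoint kinase gene Bub1 at -2.12 ± 0.05. Of the 12 E2F and pocket protein genes, 8 fell and 4 rose. E2f2 and E2f8 fell by 2.22 ± 0.08 and 1.89 ± 0.06, whereas the E2F partner gene Tfdp2 rose by 2.05 ± 0.08 and the pocket protein genes Rb1 and Rbl2 by 1.11 and 1.07.

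Markers of other cell types moved too. Of 14 microglia markers listed, 5 were matched to an identifier, since names came only from the authors' deposited tables of differentiating CG4 cells. All 5 were lower in differentiating than in proliferating primary cells. They summed to 29.9 to 35.9 CPM in the differentiating and to 619 to 636 CPM in the proliferating libraries. Defining microglia genes were not at 0 in differentiating cells, with Csf1r at 12.3 to 16.4 CPM and P2ry12 at 0.796 to 1.18 CPM. In control differentiating CG4 cells Csf1r stood at 0.197 to 0.361 CPM and P2ry12 at 1.16 to 2.46 CPM, so P2ry12 was no higher in the primary cells. The 7 astrocyte markers summed to 1356 to 2568 CPM in differentiating and to 323 to 344 CPM in proliferating cells, with Aldh1l1 at or under 0.639 CPM in the proliferating ones. The astrocyte sum was led by Gfap, with means of 1072 CPM in differentiating and 4.38 CPM in proliferating cells. Sox9, of the same list, went the other way, with means of 35.8 and 111 CPM, as did Gja1, with means of 80.4 and 101 CPM. The part of these markers in the falls of the replication genes was not tested.

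**Figure D2:**
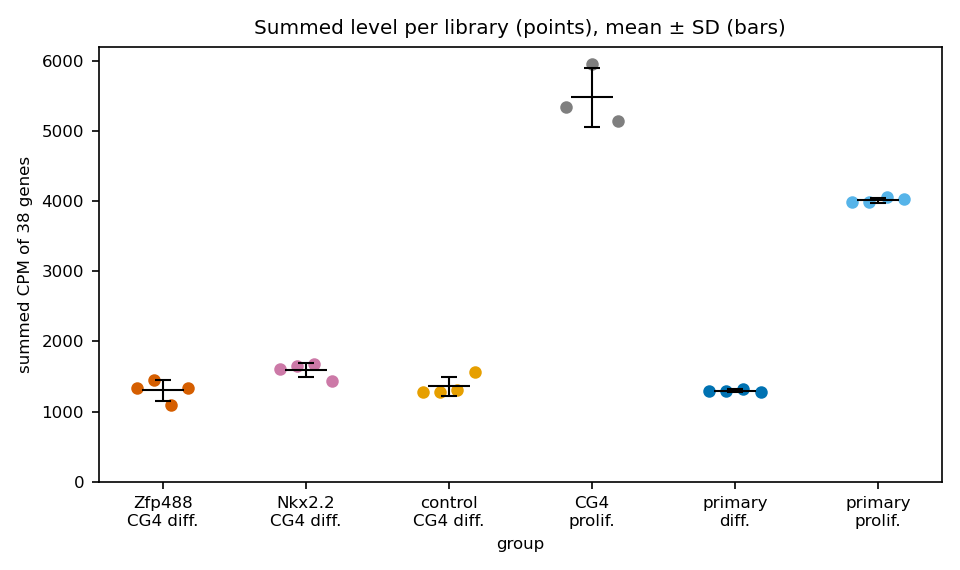
The summed CPM of 38 replication genes (vertical axis from 0) is shown for each library (points) with the mean and SD of each of 6 groups (bars). Differentiating libraries lie between 1092 and 1678 CPM, and the proliferating primary and CG4 libraries at 3983 CPM or more.

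In CG4 most replication genes were lower after differentiation too, with 3 exceptions. Control CG4 cells after 3 days of differentiation had 35 of 38 genes lower and 2 higher than proliferating CG4 cells (edgeR, adjusted p under 0.05), where 33.2% and 32.5% of all 12486 genes tested were lower and higher. The median log2 fold change was -2.10 for these genes and 0.01 for all genes. The 35 that fell, and the 2 that rose, did not overlap between the groups, as against 34.2% and 32.9% of all genes. E2f1 and Gins2 rose, and Gins4 was not called.

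Tyms showed the largest fall, to 3.26% of the proliferating level. It stood at 4.63, 4.97, 4.38 and 3.88 CPM in control differentiating and at 118, 173 and 128 CPM in proliferating CG4 cells (-4.94 ± 0.18, adjusted p = 3.88e-07). Lig1 had 17.4, 19.3, 17.2 and 17.9 CPM in control differentiating and 210, 273 and 215 CPM in proliferating CG4 cells (-3.67 ± 0.13, adjusted p = 3.87e-07). Both genes are low in all 4 differentiating and high in all 3 proliferating libraries. Rrm2 had 26.4, 27.6, 23.5 and 32.2 CPM in control differentiating and 244, 258 and 278 CPM in proliferating CG4 cells, 9.30-fold lower (-3.22 ± 0.13, adjusted p = 6.02e-07). Its groups do not overlap. Pola1, the catalytic subunit of polymerase alpha, had 17.2, 22.6, 19.7 and 19.0 CPM in control differentiating and 157, 143 and 163 CPM in proliferating CG4 cells (-2.95 ± 0.13). Rrm1 had 73.8, 75.9, 71.4 and 82.0 CPM in control differentiating and 436, 463 and 380 CPM in proliferating CG4 cells (-2.46 ± 0.12). Both were low in every differentiating library. Licensing genes ranged from -2.80 for Cdc6 to -1.53 for Mcm7, with a median of -2.14.

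The genes with the smallest falls were in part those of primary cells: Rpa3 fell by 0.53 ± 0.11 and Rfc1 by 0.94 ± 0.18, beside Pold1 at -0.90 ± 0.20 and Ccne1 at -1.01 ± 0.19. Across 38 genes the changes on differentiation in CG4 and in primary cells had a Pearson correlation of 0.257 (Spearman 0.425), or 0.424 (Spearman 0.455) over the 36 without E2f1 and Gins2. This is a description across genes that share their libraries. Genes with an E2F word in the promoter had a median change of -2.45 in CG4 and -1.87 in primary cells (14 genes). Those with a promoter but no such word had medians of -1.60 and -1.40 (16 genes), and the ranges overlap in both cell sources.

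**Figure D3:**
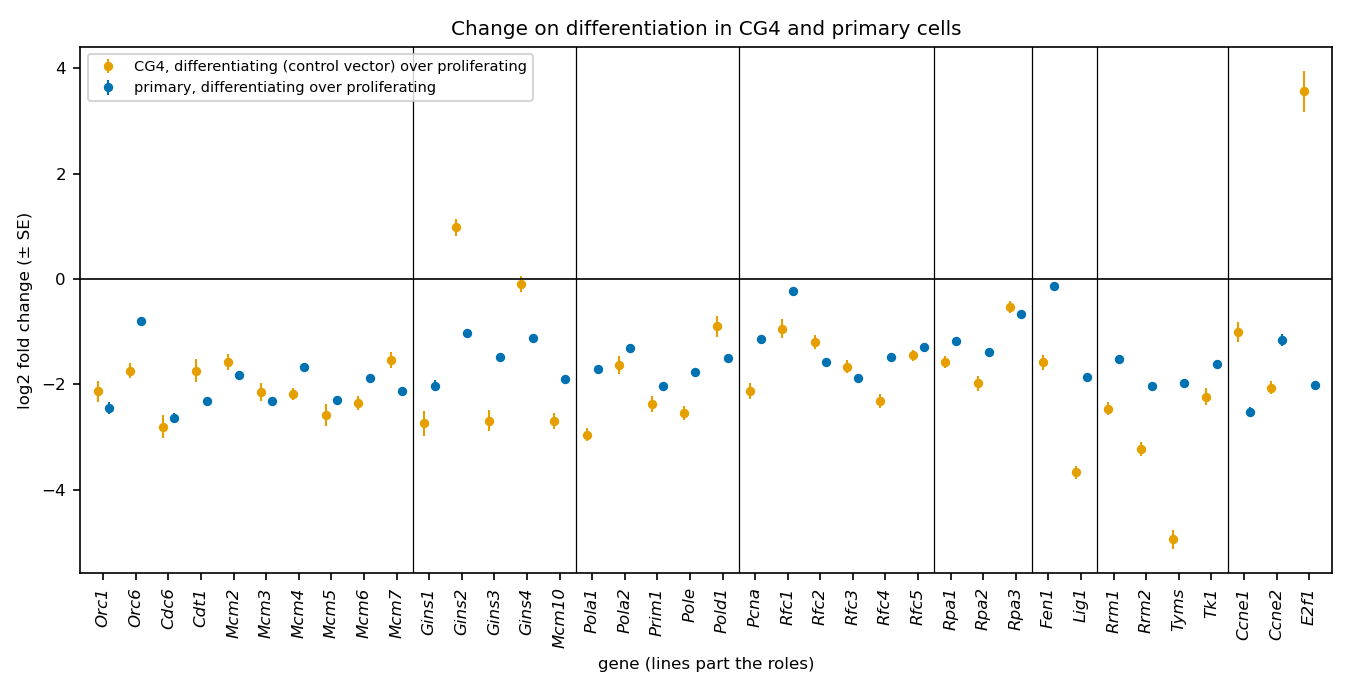
Log2 fold changes on differentiation are shown for 38 genes (horizontal axis, by role), with SE as bars: CG4 with the control vector over proliferating CG4 (orange, left of each pair) and differentiating over proliferating primary cells (blue, right). All blue points lie below 0, and the orange points of E2f1 (3.56) and Gins2 (0.98) lie above it.

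E2f1 was low in proliferating CG4 cells, under conditions in which most of the 38 genes were high. Its level was 11.1, 9.96, 14.3 and 16.6 CPM in control differentiating and 0.722, 1.75 and 0.898 CPM in proliferating CG4 cells (3.56 ± 0.39, adjusted p = 9.49e-05). It was low in all 3 proliferating CG4 libraries, with 30, 56 and 37 reads, and high in all 4 proliferating primary libraries, with 1459 to 2386 reads. The other E2F genes did not share this pattern: E2f2 averaged 6.15 ± 1.41 CPM in control differentiating (SD, n = 4) and 38.2 ± 10.3 CPM in proliferating CG4 cells (SD, n = 3), and E2f7 4.49 ± 0.606 and 59.9 ± 9.56 CPM. Of 8606 genes with 5 CPM or more in each of the other 5 groups, 122 (1.42%) were over 8-fold lower in proliferating CG4 cells, and E2f1 was the 1 replication gene among the 39 in that set, which was defined after its values were seen. Another replication factor in the same position was Chtf8, a subunit of an alternative clamp loader, with 123 to 139 CPM in control differentiating, 0.0626 to 0.146 CPM in proliferating CG4 and 147 to 152 CPM in proliferating primary cells. Whether a difference in counting or sequencing sets the E2f1 values was not tested.

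The GINS genes parted within their complex. Gins2 had 30.2, 31.7, 33.1 and 43.1 CPM in control differentiating and 16.4, 19.6 and 17.4 CPM in proliferating CG4 cells (0.98 ± 0.16, adjusted p = 0.0009). Gins4 had 32.7, 37.7, 49.1 and 38.9 CPM in control differentiating and 46.9, 39.2 and 44.0 CPM in proliferating CG4 cells (-0.10 ± 0.15, 95% interval -0.41 to 0.20, adjusted p = 0.577). Gins2 is higher in every differentiating library, and Gins4 overlaps between the groups, whereas Gins1 and Gins3 fell by 2.74 ± 0.24 and 2.69 ± 0.20. In RefSeq GRCr8, 5 of the 39 genes overlap another protein-coding gene (Gins2 with Gse1, Fen1 with Tmem258, Lig1 with Zswim9, Rrm2 with Cys1 and Ccne2 with Ints8). No source used here states whether counting used strand, so reads of such partners cannot be told apart.

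Related lists in CG4 moved with the replication genes. Of 43 other replication factors, 37 were lower and 3 higher, with a median of -1.67, and Dbf4, the activator of a kinase that fires origins, fell by 5.07 ± 0.17. All 19 mitosis genes fell, with a median of -2.58. Of the E2F and pocket protein genes 10 of 12 fell, among them E2f7 by 3.71 ± 0.17 and Rbl1 by 2.76 ± 0.17, and none was called higher (edgeR, with 10 of 12 also at an unadjusted p under 0.05). The 5 microglia markers summed to 13.2 CPM or less in all these CG4 libraries. The 7 astrocyte markers summed to 1233 to 3081 CPM in control differentiating and to 258 to 554 CPM in proliferating CG4 cells, with Gfap at 0.315 CPM or less and Aldh1l1 at 0 in the proliferating ones, and their part in the falls was not tested.

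Whether a gene changed more in CG4 than in primary cells was tested with an interaction term. It was called for 28 of 38 genes, 20 of them lower in the CG4 response and 8 higher, with 35.4% and 33.8% of all 13207 genes tested in those directions. The median difference of the log2 responses was -0.40 for these genes and -0.03 for all genes. Tyms (-2.92 ± 0.18, adjusted p = 4.19e-09) and Lig1 (-1.77 ± 0.13, adjusted p = 1.94e-08) fell further in CG4, as did Fen1 (-1.40 ± 0.14), Pola1 (-1.19 ± 0.12), Gins3 (-1.17 ± 0.20) and Rrm2 (-1.14 ± 0.13). The positive differences were led by E2f1 (5.63 ± 0.32, adjusted p = 1.47e-09) and Gins2 (2.06 ± 0.15, adjusted p = 2.00e-08). Ccne1 (1.54 ± 0.22, adjusted p = 2.32e-05) and Gins4 (1.04 ± 0.16) followed. Of the 10 licensing genes 5 were called, Mcm7 (0.64 ± 0.14) and Cdt1 (0.62 ± 0.22) with the weaker fall in CG4 and Orc6 (-0.90 ± 0.14), Mcm4 (-0.49 ± 0.11) and Mcm6 (-0.44 ± 0.13) with the stronger one. The call of Cdt1 was lost with the close primary pairs summed (0.60, adjusted p = 0.0605), without proliferating CG4 replicate 1 (0.46, adjusted p = 0.0544) and without proliferating CG4 replicate 3 (0.55, adjusted p = 0.052). Cdc6 differed by -0.11 (95% interval -0.57 to 0.35), Mcm3 by 0.21 (-0.11 to 0.54) and Mcm5 by -0.24 (-0.63 to 0.16), and these were not called. As with the CG4 response itself, vector and sequencing run are part of this difference and cannot be told apart from it.

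Many replication genes stood higher in CG4 than in primary cells under proliferative conditions. Only the proliferating CG4 libraries had the shorter reads, so cell source and sequencing run cannot be told apart in this comparison. Proliferating CG4 cells had 24 of 38 genes higher and 2 lower than proliferating primary cells (edgeR), where 39.2% and 32.0% of all genes were. The median was 0.42 for these genes and 0.10 for all genes, and with RLE size factors it was 0.33 beside 0.00, with 22 higher and 3 lower. Tyms had 118, 173 and 128 CPM in proliferating CG4 cells and 45.3, 47.7, 43.6 and 49.2 CPM in proliferating primary cells (1.57 ± 0.13, adjusted p = 5.34e-08). Lig1 had 210, 273 and 215 CPM in proliferating CG4 cells and 85.9, 80.5, 91.2 and 91.5 CPM in proliferating primary cells (1.39 ± 0.09). Pola1 had 157, 143 and 163 CPM in proliferating CG4 cells and 57.3, 66.6, 58.0 and 61.6 CPM in proliferating primary cells (1.32 ± 0.09). All 3 genes were higher in every CG4 library, and the thymidine kinase gene Tk1 was higher by 0.99 ± 0.12. Gins2 had 16.4, 19.6 and 17.4 CPM in proliferating CG4 cells and 54.3, 53.3, 55.5 and 56.5 CPM in proliferating primary cells (-1.65 ± 0.11, adjusted p = 8.03e-09). E2f1, with the levels above, was also lower in CG4 (-5.87 ± 0.27, adjusted p = 1.02e-10), and neither gene overlaps between the sources. The summed CPM of the 38 genes was 5339, 5955 and 5148 in proliferating CG4 cells, above all 4 proliferating primary libraries. Of the 19 mitosis genes 18 were higher in proliferating CG4 cells, with a median of 1.00. Markers of other cells differed as well. The 5 microglia markers summed to 4.97 to 6.95 CPM in proliferating CG4 cells, with Csf1r at 0.0939 CPM or less, and to 619 to 636 CPM in proliferating primary cells. Fibroblast and vascular markers summed to 4.50 to 8.32 CPM in CG4 and 223 to 252 CPM in primary cells. The progenitor marker Cspg4 is on that list and made up 93.8 to 99.3 CPM of the primary sums. Neuron markers summed to 67.3 to 110 CPM in CG4 and 303 to 316 CPM in primary cells. The primary sum was led by Tubb3, with means of 32.3 CPM in CG4 and 211 CPM in primary cells. Syt1, of the same list, went the other way, with means of 56.4 and 9.55 CPM. The part of all these markers in the replication gene values was not tested.

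After 3 days of differentiation, genes higher and lower in CG4 were more evenly split. Control CG4 cells carried a vector and primary cells did not, so cell source and vector cannot be told apart there. Control differentiating CG4 cells had 13 of 38 genes higher and 10 lower than differentiating primary cells, against 36.8% and 36.2% of all genes, with a median of 0.08 for these genes and 0.00 for all genes. Gins4 had 32.7, 37.7, 49.1 and 38.9 CPM in control differentiating CG4 cells and 13.1, 13.3, 13.2 and 14.6 CPM in differentiating primary cells (1.56 ± 0.11, adjusted p = 1.05e-08). Mcm7 had 143, 132, 109 and 157 CPM in control differentiating CG4 cells and 67.4, 63.1, 65.8 and 68.0 CPM in differentiating primary cells (1.04 ± 0.10). Both stood higher in every CG4 library, and Ccne1 was higher by 1.54 ± 0.16 and Rpa3 by 0.89 ± 0.07. Fen1 had 30.1, 25.6, 29.0 and 36.2 CPM in control differentiating CG4 cells and 77.0, 78.4, 70.0 and 70.0 CPM in differentiating primary cells (-1.28 ± 0.10, adjusted p = 2.39e-08). Its groups lie far apart. Tyms and Rrm2 had -1.35 ± 0.13 and -0.83 ± 0.09 and were lower in CG4. E2f1 overlapped between the differentiating groups (-0.24 ± 0.19, 95% interval -0.61 to 0.14, adjusted p = 0.274). Oligodendroglia markers summed to 12633 to 20223 CPM in control differentiating CG4 cells and 93257 to 103704 CPM in differentiating primary cells. Fibroblast and vascular markers summed to 9.33 to 23.2 CPM in CG4 and 111 to 130 CPM in primary cells. Most of that primary sum was the progenitor marker Cspg4, at 101 to 110 CPM. Col1a1 and Fn1 averaged 8.13 and 8.66 CPM in CG4 and 5.5 and 6.17 CPM in primary cells, and Col3a1 0.159 and 2.45 CPM. The part of all these markers was not tested.

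**Figure D4:**
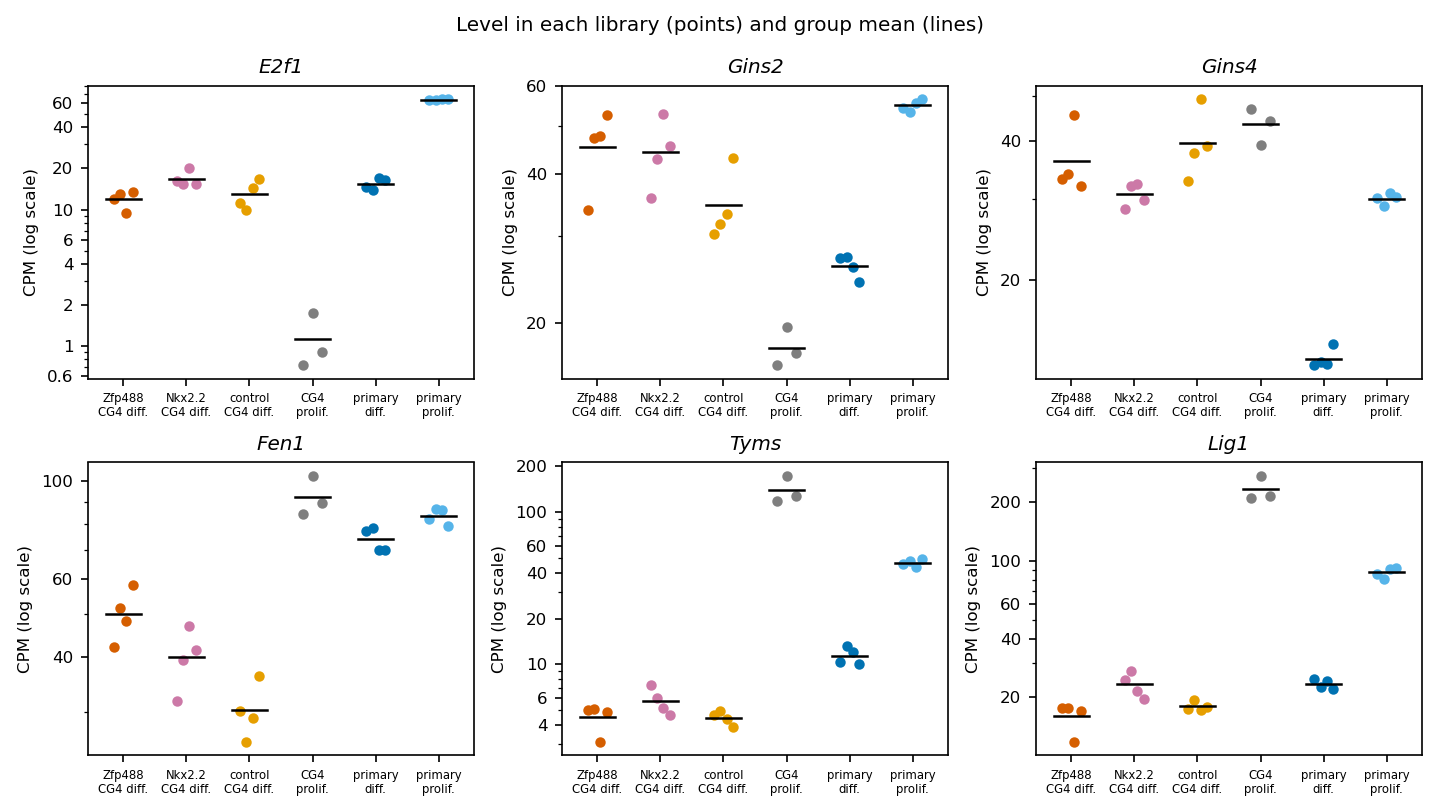
CPM on log axes for 6 replication genes: points are libraries and lines are group means, for 6 groups. E2f1 and Gins2 are lowest in proliferating CG4 cells, Gins4 in differentiating primary cells, Fen1 is lowest in control differentiating CG4 cells, and Tyms and Lig1 fall by the largest factors between proliferating and differentiating CG4 cells.

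With Nkx2.2, most replication genes of differentiating CG4 cells had positive values against control. In the fit by group alone the share called was no larger than that of all genes. With the replicate number as a block, described below, the share called higher was larger, at 11 of 39 genes where 12.6% of all genes were. The log2 fold change was positive for 37 of 39 genes, with a median of 0.29 against -0.01 for all genes, and 2 passed the test, both higher (edgeR), where 6.10% of all 14811 genes tested were higher and 4.48% lower. Ccne2 had 26.9, 26.4, 24.3 and 25.1 CPM in Nkx2.2 cells and 19.1, 17.2, 20.5 and 20.4 CPM in control (0.42 ± 0.11, adjusted p = 0.0227). Rrm2 had 44.8, 43.2, 39 and 33.2 CPM in Nkx2.2 cells and 26.4, 27.6, 23.5 and 32.2 CPM in control (0.56 ± 0.16, adjusted p = 0.0452). All Nkx2.2 libraries lie above all control libraries for both genes, and also for Mcm4, Pole, Rpa1 and Lig1, so for 6 of 39, as against 7.74% of all genes, and 1 of 39 lay below, as against 7.41%. Single libraries decided both calls. That of Ccne2 was lost without Nkx2.2 replicate 1, 2 or 4 or control replicate 1 or 2 (adjusted p 0.0547 to 0.0718). That of Rrm2 was lost without Nkx2.2 replicate 1, 2 or 3 or control replicate 1, 2 or 3 (adjusted p 0.051 to 0.121) and with no filter on low counts (adjusted p = 0.0555).

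Next in order of adjusted p were Rpa1, Mcm4 and Fen1, which did not pass. Rpa1 had 73.7, 76.6, 73.5 and 71.6 CPM in Nkx2.2 cells and 61.3, 58.5, 62.5 and 67.1 CPM in control (0.26 ± 0.08, adjusted p = 0.0591). Mcm4 had 73.9, 75.7, 65.1 and 64.6 CPM in Nkx2.2 cells and 57.5, 51.8, 48.0 and 59.1 CPM in control (0.38 ± 0.12, adjusted p = 0.0703). Fen1 had 31.7, 39.4, 46.9 and 41.5 CPM in Nkx2.2 cells and 30.1, 25.6, 29.0 and 36.2 CPM in control (0.41 ± 0.14, adjusted p = 0.082). Of these only Fen1 overlaps between the groups.

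Replicate numbers paired these libraries, and with the replicate number as a block 11 of 39 genes were higher and 1 lower, where 12.6% and 13.5% of all genes were. The ring genes Mcm4 (0.38 ± 0.09, adjusted p = 0.00974) and Mcm5 (0.47 ± 0.15) then joined Ccne2 and Rrm2. So did Gins2 (0.37 ± 0.09), Gins3 (0.41 ± 0.13), Pole (0.42 ± 0.10), Rpa1 (0.26 ± 0.07), Fen1 (0.41 ± 0.11), Lig1 (0.38 ± 0.11) and Rrm1 (0.30 ± 0.10). Gins4 was the lower one (-0.34 ± 0.08, adjusted p = 0.0104), with 28.5, 31.9, 32.3 and 29.8 CPM in Nkx2.2 cells and 32.7, 37.7, 49.1 and 38.9 CPM in control, below in every library. E2f1 had 16.2, 15.4, 20.1 and 15.3 CPM in Nkx2.2 cells and 11.1, 9.96, 14.3 and 16.6 CPM in control, which overlap (0.38 ± 0.17, 95% interval 0.04 to 0.71, adjusted p = 0.185). The interval is for this gene alone.

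Single libraries weighed on this comparison. Control replicate 4 was the highest of its group for 29 of 39 genes, where 27.3% of all genes were highest there, and Nkx2.2 replicate 4 was the lowest of its group for 27 of 39, where 17.5% of all genes were lowest. Leaving out control replicate 4 alone gave 4 of 39 genes higher in Nkx2.2 cells, where 5.20% of all genes were. Without control replicate 4 and Zfp488 replicate 3, chosen after the values were seen, 13 of 39 genes were higher in Nkx2.2 cells, where 5.31% of all genes were. Zfp488 replicate 3 belongs to neither group compared here and was only part of the same fit. Of the 39 genes, 9 were higher and 0 lower in the authors' deposited table with an adjusted p under 0.05, where 14.4% of its genes were called, among them Ccne2, Rrm2, Rpa1 and Mcm4.

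Other lists also held calls for Nkx2.2. All 19 mitosis genes had positive values (median 0.38). In edgeR 2 were called higher, Ccnb1 (0.52 ± 0.14, adjusted p = 0.0388) and Birc5 (0.47 ± 0.13, adjusted p = 0.0412), where 6.10% of all genes were higher. With the block 8 were called, where 12.6% of all genes were higher. Of 46 other replication factors 1 was called, the helicase gene Recql4 at 0.48 ± 0.10 (adjusted p = 0.0103). Of the E2F and pocket protein genes 1 was called, the repressor gene E2f7 at 0.70 ± 0.15 (adjusted p = 0.012). Markers of other cells moved as well: the 4 fibroblast and vascular markers summed to 39.1 to 134 CPM in Nkx2.2 cells and 9.33 to 23.2 CPM in control. Most of the Nkx2.2 sum was Fn1, at 27.4 to 119 CPM in Nkx2.2 cells and 5.15 to 11.4 CPM in control. Col1a1 overlapped, at 8.34 to 13.8 CPM in Nkx2.2 cells and 3 to 12 CPM in control. The fibroblast collagen gene Col3a1 stayed at 1.73 CPM or less in both. Their part in the replication gene values was not tested.

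**Figure D5:**
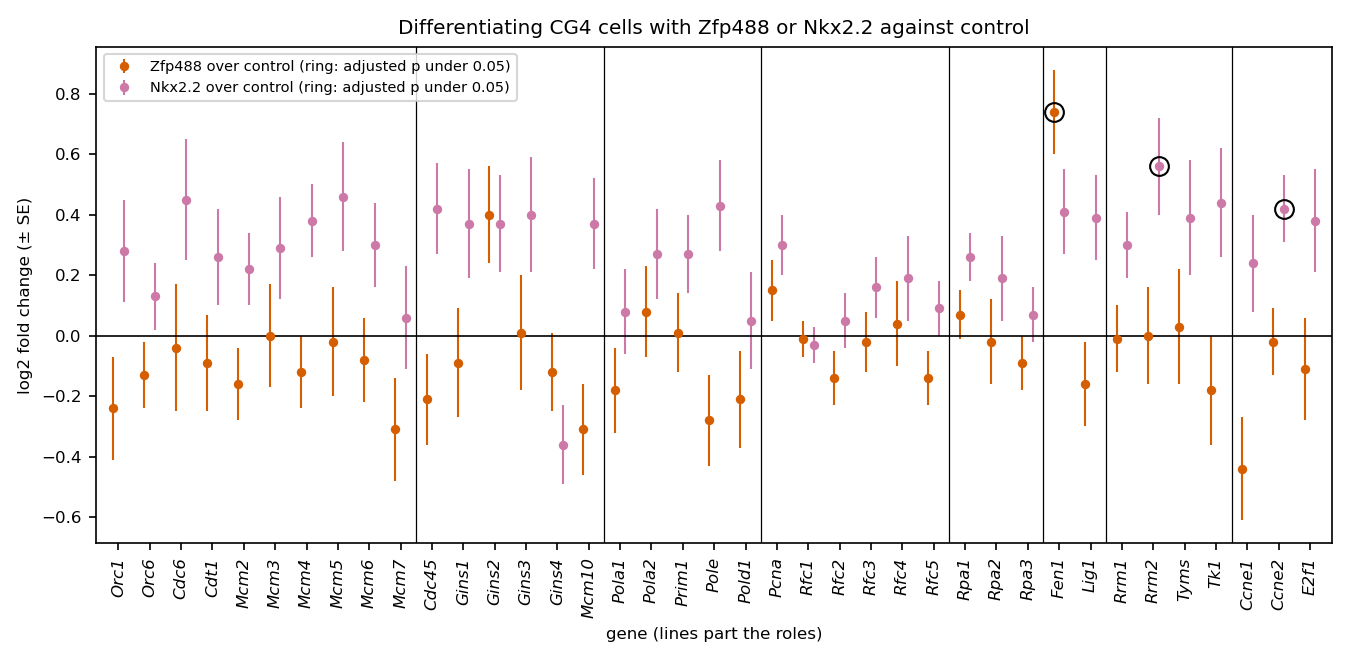
Log2 fold changes over control with SE (bars) for 39 genes in differentiating CG4 cells, Zfp488 (orange, left of each pair) and Nkx2.2 (pink, right); rings mark an adjusted p under 0.05. Most pink points lie above 0 with a median of 0.29, orange points scatter around -0.09, and Fen1, Rrm2 and Ccne2 carry the 3 rings.

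Against control, 1 replication gene was called in Zfp488 cells, a smaller share than that of all genes. Fen1 had 42.1, 51.7, 48.2 and 58.3 CPM in Zfp488 cells and 30.1, 25.6, 29.0 and 36.2 CPM in control, 1.67-fold higher (0.74 ± 0.14, adjusted p = 0.0091). Every Zfp488 library lies above every control library, and no other gene of the 39 is so parted, where 8.12% of all genes were above and 6.85% below. Called higher were 1 of 39, where 5.89% of all genes were higher, and lower 0 of 39, where 3.15% were (edgeR; 3 of 39 had an unadjusted p under 0.05 in either direction, as had 24.8% of all genes, and DESeq2 also called Fen1 alone). The median was -0.09 for these genes and -0.02 for all genes. It ran from -0.14 to 0.01 with 1 library left out, was positive without control replicate 4, close to 0 without Zfp488 replicate 3, and 0.09 without both libraries, a choice made after the values were seen. In the authors' deposited table Fen1 was likewise the 1 gene of the 39 with an adjusted p under 0.05, at a log2 fold change of 0.745.

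Further values for Zfp488 did not pass. Gins2 had 33.8, 47.3, 47.7 and 52.6 CPM in Zfp488 cells and 30.2, 31.7, 33.1 and 43.1 CPM in control, which overlap (0.40 ± 0.16, adjusted p = 0.131). It was called with the replicate block (0.40 ± 0.09, adjusted p = 0.0125), where 14.0% of all genes were higher and 10.2% lower. Ccne1 had 23.2, 22.4, 20.7 and 17.9 CPM in Zfp488 cells and 23.7, 22.9, 29.6 and 39.2 CPM in control (-0.44 ± 0.17, adjusted p = 0.117). Its groups overlap in the values near 23 CPM. Mcm10 and Mcm7 had log2 fold changes of -0.31 ± 0.15 and -0.31 ± 0.17. E2f1 had 11.9, 13.0, 9.40 and 13.5 CPM in Zfp488 cells and 11.1, 9.96, 14.3 and 16.6 CPM in control, which overlap (-0.11 ± 0.17, 95% interval -0.44 to 0.23). Zfp488 replicate 3 was the lowest of its group for 30 of 39 genes, where 28.6% of all genes were lowest there. No gene of 46 other replication factors (7 at an unadjusted p under 0.05 in edgeR) or of 19 mitosis genes (0 at an unadjusted p under 0.05) was called, and of the E2F and pocket protein genes Tfdp1 was, at -0.39 ± 0.10 (adjusted p = 0.0362).

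Zfp488 and Nkx2.2 were then compared directly, since both comparisons above share the control libraries. Zfp488 cells had 11 of 39 genes lower and 0 higher than Nkx2.2 cells (edgeR), where 12% and 13.3% of all genes were, and 21 of 39 had an unadjusted p under 0.05 in either direction, as had 38.6% of all genes. The median was -0.35 for these genes and -0.01 for all genes, and 35 of 39 values were negative. Without Zfp488 replicate 3 the median was -0.23 and 8 genes were lower, where 9.50% of all genes were. Pole, the catalytic subunit of polymerase epsilon, had 24.2, 22.7, 14.6 and 19.7 CPM in Zfp488 cells and 39.6, 33.7, 29.2 and 29.6 CPM in Nkx2.2 cells (-0.70 ± 0.15, adjusted p = 0.00612). Ccne1 had 23.2, 22.4, 20.7 and 17.9 CPM in Zfp488 cells and 27.7, 35.4, 38.3 and 34.1 CPM in Nkx2.2 cells (-0.69 ± 0.17, adjusted p = 0.0105). In both genes the groups do not overlap, which held for 15 of 39 genes, all lower in Zfp488, where 12.1% of all genes were parted that way and 13.1% the other.

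Mcm10 (-0.67 ± 0.15, adjusted p = 0.00754), Cdc45 (-0.64 ± 0.15, adjusted p = 0.00899) and Ccne2 (-0.44 ± 0.11, adjusted p = 0.00964) were lower in Zfp488 cells as well. Cdc45, the partner of GINS in the helicase, had 12.1, 13.6, 8.66 and 11.7 CPM in Zfp488 cells, 17.1, 18.7, 20.7 and 15.2 CPM in Nkx2.2 cells and 12.9, 12.2, 12.8 and 16.0 CPM in control. The Zfp488 group lies clear of the Nkx2.2 group there and overlaps control. The other called genes were Tk1, Rrm2, Lig1, Orc1, Mcm4 and Mcm2, at -0.63 to -0.38. With 1 library left out, Orc1 lost its call in all cases but that of Zfp488 replicate 4 (adjusted p 0.0528 to 0.106), and Mcm2 in all but that of Zfp488 replicate 1 (adjusted p 0.051 to 0.0962). Tk1 lost it without Zfp488 replicate 1 or 3 or Nkx2.2 replicate 1 or 2 (adjusted p 0.0503 to 0.0564). Rrm2 lost it without Zfp488 replicate 4 or Nkx2.2 replicate 1 or 2 (adjusted p 0.0546 to 0.0722), and Lig1 without Nkx2.2 replicate 2 (adjusted p = 0.0508). Orc1 also lost it with no filter on low counts (adjusted p = 0.0572) and with the 8 libraries alone (adjusted p = 0.0537). E2f1 was at -0.49 ± 0.17 (adjusted p = 0.0549).

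With the replicate block 18 genes were lower in Zfp488 cells and 2 higher, where 20.3% and 22.0% of all genes were, and E2f1 was among the lower ones (-0.48 ± 0.16, adjusted p = 0.0335). The higher ones were Fen1 (0.33 ± 0.11, adjusted p = 0.0287) and Gins4 (0.22 ± 0.08, adjusted p = 0.048). Without Nkx2.2 replicate 2 the count of the 39 genes called was 6, with 17.3% of all genes called, and without Nkx2.2 replicate 1 it was 7, with 18.6% called. In the fit by group alone, where 12% of all genes were lower in Zfp488 cells, 9 of 19 mitosis genes were lower. Among them was the proliferation marker Mki67 (-0.72 ± 0.15, adjusted p = 0.00457). Lower in that fit were also 9 of 46 other replication factors, with Recql4 at -0.79 ± 0.10 (adjusted p = 0.000275). So were 6 of 12 E2F and pocket protein genes, with E2f7 at -0.83 ± 0.16 (adjusted p = 0.00257). Oligodendroglia markers summed to 19688 to 34850 CPM in Zfp488 cells and 8405 to 19663 CPM in Nkx2.2 cells. Neuron markers summed to 344 to 520 CPM and 155 to 215 CPM, with the Zfp488 sum led by Tubb3. Syt1, of the same list, went the other way, with means of 67.6 CPM in Zfp488 cells and 101 CPM in Nkx2.2 cells. The neuron markers Rbfox3, Snap25 and Slc17a6 stayed at 4.36 CPM or less in both, and the part of these markers in the replication gene values was not tested.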

How the data were processed

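The deposited files hold raw counts per gene and library. Per the submitters' processing notes, the authors used Trimmomatic 0.36, STAR 2.5.2b, featureCounts (Subread 1.5.2) and the build rn6, and the notes also name DESeq2 and edgeR. No source used here states the annotation release or whether strand was used. The authors' deposited tables give log2 fold changes, p-values and a normalized signal, which equals the count divided by 1 size factor per library. They were used for gene names and where named. Markers of other cell types were found by those names alone, so lists are incomplete. Matched were 5 of 14 microglia, 7 of 8 astrocyte, 4 of 10 fibroblast and vascular and 6 of 7 neuron markers. Members and lists were chosen with earlier results of these data known, and all 39 members could be named; values of every library are printed for up to 8 members per comparison, by smallest adjusted p, opposite direction and role, plus E2f1, with further members added after their values were seen.

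Under R 4.3.3, edgeR 4.0.16 scaled the counts (TMM), dropped low genes (filterByExpr) and ran its quasi-likelihood test, two-sided, with calls at a Benjamini-Hochberg adjusted p under 0.05 over all genes tested. One fit held the 12 differentiating CG4 libraries, one the 8 primary libraries and one the control and proliferating CG4 libraries. The interaction and the comparisons of CG4 with primary cells used 1 fit of 15 libraries. The labels call replicates biological without naming cultures or animals, so p-values reflect no more than how far these libraries spread. Log2 fold changes come from these fits and can differ slightly from ratios of printed CPM. Same-numbered differentiating CG4 libraries deviated together (correlations 0.16 to 0.77), so their numbers pair them. The procedure was tested on simulated data. Alternatives were RLE size factors, no filter, DESeq2 1.42.0, the replicate block, other libraries in the fit, summed primary pairs and leaving out each library. Figures used matplotlib 3.10.9.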

Additional observations from a re-analysis of the deposited data

Results flagged for a closer look

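Differences between CG4 and primary cells in the response to differentiation passed the interaction test in edgeR for 28 of 38 genes. Of all 13207 genes tested, 69.3% passed. Vector and sequencing run are part of these differences and cannot be told apart from them. The CG4 response minus the primary response on the log2 scale was positive for 8 of the 28 genes: 5.63 for E2f1, 2.06 for Gins2, 1.54 for Ccne1, 1.04 for Gins4, 0.64 for Mcm7 and for Pold1, 0.62 for Cdt1 and 0.42 for Rfc2. It was below -1 for Tyms (-2.92), Lig1 (-1.77), Fen1 (-1.40), Pola1 (-1.19), Gins3 (-1.17) and Rrm2 (-1.14). Between -1 and -0.7 lay Pcna (-0.96), Rrm1 (-0.91), Orc6 (-0.90), Ccne2 (-0.86), Rfc4 (-0.79), Mcm10 (-0.76) and Pole (-0.75). The remaining values were -0.68 for Rfc1 and for Gins1, -0.57 for Tk1, -0.56 for Rpa2, -0.49 for Mcm4, -0.44 for Mcm6 and -0.36 for Rpa1. The call of Gins1 was lost in 6 of the fits that left out 1 library (adjusted p 0.0501 to 0.0984).

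Single libraries lay far from the rest of their group in 15 of 193 groups of values, over all members in the groups of 4 libraries where the criterion could be computed, by Dixon's criterion, which chance alone would meet in about 1 of 20 groups. In Zfp488 replicate 3 these were Gins4, high at 45.4 CPM, and Lig1, Mcm3, Tyms and Gins3, low at 11.8, 24, 3.10 and 2.78 CPM. In Nkx2.2 replicate 3 it was Rfc4, high at 31.2 CPM. In control replicate 4 they were Mcm3, Prim1 and Rfc3, high at 46.7, 28.3 and 23.6 CPM. In differentiating primary cells they were Gins4 in replicate 4, high at 14.6 CPM, Rpa1 in replicate 4, low at 56.1 CPM, and Mcm3 in replicate 2, low at 28.1 CPM. In proliferating primary cells Cdt1 was high in replicate 3, at 83.8 CPM, and Mcm2 and Gins1 were low in replicate 2, at 181 and 31 CPM.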

How the results depend on the processing

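Counts of replication genes called in the comparisons of proliferating and differentiating cells, and of CG4 with primary cells, stayed within 1.5 times under every alternative tried. For Zfp488 against control the count was 2 with the replicate block, against 1, and 1 to 2 with 1 library left out. Of all genes, 24.1% were called with the block, against 9.04%, and 3.06 to 10.1% with 1 library left out. The share of all genes called is given in brackets below. For Nkx2.2 against control the count was 2 (10.6%). It became 1 with no filter (6.41%), 4 with DESeq2 (13.6%), 4 with the 8 libraries alone (8.88%) and 12 with the block (26.2%). Without Zfp488 replicate 3 and control replicate 4, chosen after seeing the data, it was 13 (8.94%). With 1 library left out it was 0 to 4 (6.17 to 15.4%). For Zfp488 against Nkx2.2 it was 20 with the block (42.4%) and 6 to 11 with 1 library left out (17.3 to 31.0%), against 11 (25.3%). E2f1 in Zfp488 against control, at -0.11, ranged over -0.22 to 0.03 with 1 library left out, turning without control replicate 4, and turned to 0.13 without Zfp488 replicate 3 and control replicate 4, neither called. The cause was not tested. Of 768 values under alternatives for the members that the rule names in each comparison, 738 kept direction and call, 16 gained a call, 12 lost it and 2 turned. Over all members, 4374 values under alternatives held 66 calls gained and 65 lost, most of them in Nkx2.2 against control (28 gained, 12 lost) and Zfp488 against Nkx2.2 (17 gained, 25 lost). In primary cells, and between proliferating and differentiating CG4 cells, same-numbered libraries did not deviate together (-0.111 to 0.149), and the replicate block, which there left the counts of genes called at 38 and 37, has no pairing behind it. Genes under 10 CPM, such as Gins3, Orc1 and Tyms in differentiating CG4 cells, are those whose counts limit precision most.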
